A study of Mus musculus with 6 samples.

Results

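The insulin-like growth factor (IGF) system of cultured mouse muscle-derived stem/progenitor cells (MDSPCs) was described with 10 genes: the ligands Igf1 and Igf2, the receptors Igf1r and Igf2r, and the binding proteins Igfbp2, Igfbp3, Igfbp4, Igfbp5, Igfbp6 and Igfbp7. The 10 were found by symbol among the 21485 genes shared by all samples, and all 10 passed the filter on low counts in both of the tests used, which covered 14512 and 12375 genes. MDSPCs are the cells of digested skeletal muscle that attach last when the unattached fraction is passed from flask to flask on collagen. By droplet-based 3′ single-cell RNA sequencing, the study profiled 3 young and 3 old mouse populations, all grown in serum-containing proliferation medium. No population carried a stated transgene or received a stated treatment, and strain, sex and the ages in months are not given in the sources used here. Each population is 1 library and 1 replicate. The number of mice behind each population is not given in the sources used here.

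IGF1 and IGF2 are secreted peptides that act through the tyrosine kinase receptor IGF1R on proliferation, survival and differentiation of muscle cells. IGF2R has no kinase activity and takes up IGF2 for degradation. The binding proteins hold IGFs outside the cell and can restrain or prolong their action, and proteases release the bound ligand. In muscle culture the IGFs are unusual among growth factors in promoting differentiation as well as growth. Myogenin, encoded by Myog, is the transcription factor that marks the entry of myoblasts into terminal differentiation.

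Of 62849 barcodes 61673 passed the filters, at median depths of 13001 to 19951 unique molecular identifiers (UMIs, tags that count each RNA molecule once) per cell. Pairs of libraries shared between 24 and 41 barcodes, at most 0.375% of the smaller library. Every population held RNA of the myogenic progenitor list (10 genes, among them Pax7, Myod1 and Des), at a summed level of 430 to 2968 CPM (counts scaled to a common library total). The largest term was Chrna1 in every population but young replicate 3, at 118 to 1086 CPM. Pax7 gave 0.0245 to 55.5 CPM over all populations. Not every gene of the list was found everywhere: young replicate 3 had 5 counts of Pax7 and 2.48 CPM of Des, with most of its sum from Megf10, Vcam1 and Sdc4 (130, 90.7 and 83.6 CPM), and young replicate 1 had 1 count of Myf5. The endothelial list (6 genes) summed to 59.6 CPM in young replicate 2, of which Tek alone gave 59.1 CPM, and to 0.645 to 1.56 CPM in the other populations, and the leukocyte list (6 genes) to 1.35 to 9.68 CPM. The fibro-adipogenic list (12 genes) lay between 301 and 489 CPM in all populations. Of these sums Gsn, which encodes the actin-severing protein gelsolin, alone gave 135 to 303 CPM. The defining marker Pdgfra was at 0.0363 to 1.88 CPM and Lum had 0 or 1 count. Other members were high in some populations. Col3a1 reached 132 CPM and Smoc2 103 CPM in young replicate 2, Cd34 108 CPM in old replicate 1 and Ly6a 121 CPM in old replicate 2. The sum therefore does not settle whether such cells were present. Young replicate 1 and old replicate 1 had been counted on a shorter gene list than the other 4 samples. That list holds Gm49394, a protein-coding model on the strand of Igf2 that shares 3596 of the 5723 exon bases of Igf2 (62.8%) and is not on the longer list. Gm49394 had 0 counts in both samples. Igf2 had 46 counts in young replicate 1 and 1 count in old replicate 1. For these 2 samples a low Igf2 level cannot be told apart from an effect of the gene list, and below, Igf2 values are set against each other across the lists in 1 alternative fit without a gene list term. The strand setting of the counting is not given in the sources used here either. Igfbp7 shares 85 of its 1209 exon bases (7.03%) with the end of Polr2b, on the opposite strand. Whether reads in these shared bases were told apart by strand is therefore not known here. In young replicate 2 Igfbp7 had 81 counts in all.

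Igf1 RNA was scarce in every population. The gene (chromosome 10, 87858265 to 87937042, GRCm38) reached 0.751, 1.04 and 0.929 CPM in young replicates 1, 2 and 3, and the old replicates 1, 2 and 3 gave 0.572, 9.80 and 4.15 CPM. CPM here are scaled with edgeR's TMM factors. A 3′ UMI counts a molecule, so gene lengths were not used. The treatment of intronic reads is not given in the sources used here, and differences in capture between genes were not tested. Levels of different genes are therefore set side by side as counted. Old replicates 2 and 3 stood above the other 4 populations, while old replicate 1 was the lowest of all. A UMI of Igf1 was found in 0.303% to 4.82% of cells that had been thinned at random to 5000 UMIs each.

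Igf2 (chromosome 7, 142650766 to 142666816) differed widely between populations. On the longer list it reached 78.8 CPM in young replicate 3, 14.98 CPM in old replicate 2 and 81.3 CPM in old replicate 3, against 0.0519 CPM (10 counts) in young replicate 2. The difference between young replicate 2 and young replicate 3 lies inside 1 group and inside 1 gene list. Igf2 UMIs were present in 30.5% of thinned cells of young replicate 3 and in 24.3% of those of old replicate 3. In old replicate 2 they were present in 4.71% of cells. Igf2 is an imprinted gene, expressed from the paternal copy in most tissues.

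Both receptors were found in every population. The young replicates 1, 2 and 3 had 73.3, 43.0 and 133 CPM of Igf1r (chromosome 7, 67952827 to 68233668), and the old replicates had 86.7, 48.2 and 47.3 CPM. For Igf2r (chromosome 17, 12682406 to 12769664) the young values were 66.9, 36.9 and 41.0 CPM and the old values 35.1, 46.7 and 51.9 CPM. The ranges of young and old populations overlapped for both receptors. The level of Igf2r spanned 0.93 on the log2 scale from the lowest to the highest population, which is near the median of 1.04 over 9587 genes with a mean of 5 CPM or more. Igf1r spanned 1.63.

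The binding proteins varied far more. Igfbp2 (chromosome 1, 72824503 to 72852474), a binding protein that can also contact integrins, had levels of 7.96, 3397 and 23.5 CPM in young replicates 1, 2 and 3. Old replicates 1, 2 and 3 gave 60.0, 76.5 and 549 CPM. Young replicate 2 alone was therefore over all other populations, with a UMI in 99.7% of its thinned cells and a mean of 17.3 UMIs in those cells. Igfbp5 (chromosome 1, 72857932 to 72874884), which myoblasts are known to secrete as they differentiate, gave 247, 1449 and 230 CPM in young and 88.9, 1228 and 307 CPM in old replicates 1, 2 and 3. Here young replicate 2 and old replicate 2 were high. Igfbp2 and Igfbp5 are neighbours that converge on chromosome 1, with 5457 bases and no other annotated gene between them.

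Igfbp7 (chromosome 5, 77349240 to 77408041), a relative with low affinity for IGFs that is found in the extracellular matrix, was at 600 CPM in young replicate 1 and at 0.420 CPM (81 counts) in young replicate 2. The remaining values were 231 CPM in young replicate 3 and 199, 17.9 and 42.7 CPM in old replicates 1, 2 and 3. Young replicate 1 was thus highest for Igfbp7 and lowest for Igfbp2, and young replicate 2 was the reverse. Igfbp7 UMIs were found in 77.6% of thinned cells of young replicate 1 and in 0.225% of those of young replicate 2. No cell type in the cultures was certain to lack any of the 10 genes, so these shares have no background value from free RNA beside them.

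Igfbp3 (chromosome 11, 7206086 to 7213923), the main IGF carrier of serum, gave 17.1, 39.4 and 17.8 CPM in young and 20.4, 140 and 71.0 CPM in old populations. Igfbp4 (chromosome 11, 99041244 to 99054392), whose bound IGF is released by the protease PAPP-A, gave 5.31, 0.182 and 8.19 CPM in young and 33.2, 6.48 and 65.4 CPM in old populations. Averaged over thinned cells with equal weight, Igfbp4 gave 0.161 UMIs per cell in old replicate 3 and 0.182 in old replicate 1, so that old replicate 3 was not the highest by that measure. Both genes overlapped between the groups, by old replicate 1 for Igfbp3 and by old replicate 2 for Igfbp4. Igfbp6 (chromosome 15, 102144362 to 102149511), which prefers IGF2, gave 3.21, 0.701 and 1.95 CPM in young and 24.1, 4.48 and 39.2 CPM in old populations, so that each old value lay above each young one. In old replicate 2 the median gene of chromosome 11 stood 0.31 above the median of all genes on the log2 scale, each gene taken against its median over samples, and that of chromosome 5 stood 0.24 above. On the other chromosomes that carry the 10 genes, and in the other populations, such shifts ran from -0.09 to 0.09. Their part in the levels of Igfbp3, Igfbp4 and Igfbp7 was not tested.

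**Figure D1:**
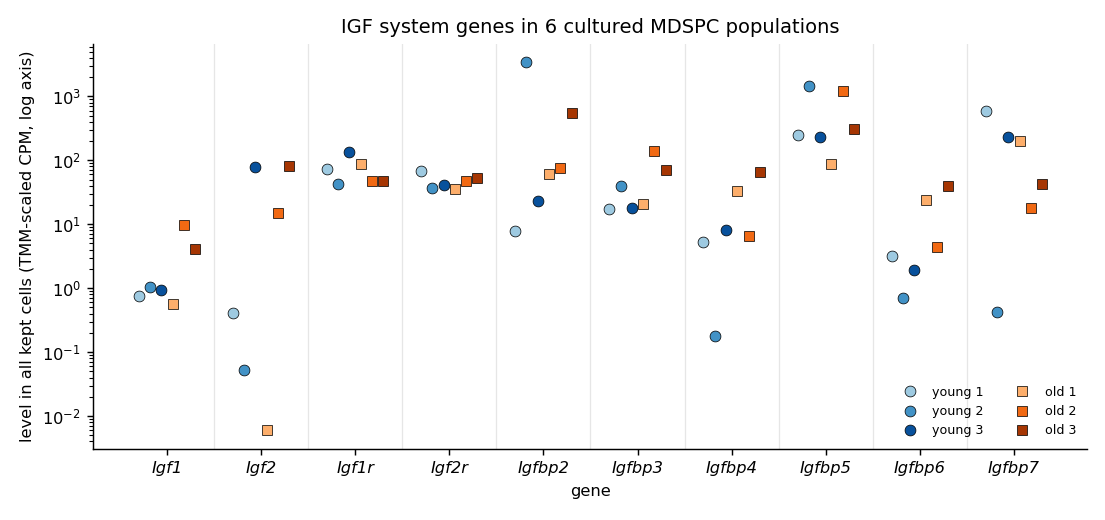
Level of each of the 10 genes (vertical log axis, TMM-scaled CPM over all kept cells) in the 3 young populations (blue circles) and the 3 old populations (orange squares); 1 point is 1 population. Igfbp2 runs from 7.96 to 3397 CPM and Igfbp7 from 0.420 to 600 CPM, while Igf2r stays between 35.1 and 66.9 CPM; Igf2 values of young 1 and old 1 come from the gene list that holds an overlapping gene.

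On the log2 scale, the distance from the lowest to the highest population was 10.5 for Igfbp7, 8.74 for Igfbp2, 8.49 for Igfbp4, 5.80 for Igfbp6, 4.03 for Igfbp5 and 3.04 for Igfbp3. The 95th percentile over the 9587 genes was 4.30. The 4 widest of the 6 binding proteins were thus beyond it, and they differed by large factors between populations of the same age group.

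Old and young populations were compared to ask whether the IGF system differs with the age of the donor. None of the 10 genes passed edgeR's quasi-likelihood test at an adjusted p of 0.05, where 1 of 14512 genes (0.00689%) did. DESeq2 called 1 of the 10, where it called 219 of all genes tested (1.51%), and 2 of the 10 had an edgeR unadjusted p under 0.05, as had 512 of all genes (3.53%). Igfbp6 was the 1 gene whose groups did not overlap, which 3.63% of all genes tested showed with old higher and 6.05% in either direction. Its mean was 1.95 ± 1.25 CPM (SD, n = 3) in young and 22.6 ± 17.4 CPM (SD, n = 3) in old populations, a log2 fold change of 3.67 (SE 0.94, edgeR adjusted p = 0.999859). DESeq2 called it at an adjusted p of 0.00296. The log2 fold change of Igfbp3 was 1.36 (SE 0.54), that of Igfbp4 2.95 (SE 1.44) and that of Igf1 1.85 (SE 0.91), all with old higher and edgeR adjusted p = 0.999859. The other 6 genes had log2 fold changes of -1.82 to -0.08 with SEs of 0.32 to 2.38. Each of these 6 turned positive in at least 1 fit with a population left out. With SEs of this size, a p that misses the threshold does not show that the groups are alike.

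The mix of binding-protein transcripts differed between the populations, each of which is 1 library. As a share of all UMIs of the 6 binding proteins, Igfbp7 held 68.1% in young replicate 1 (95% Wilson interval 67.8% to 68.4%), followed by Igfbp5 with 28.1%. Igfbp2 held 69.5% in young replicate 2 (69.4% to 69.6%), again followed by Igfbp5, with 29.6%. In young replicate 3 Igfbp7 held 45.1% (44.8% to 45.4%) and Igfbp5 44.8% (44.5% to 45.2%), so that the leader was not resolved. These intervals cover counting error only. The 3 young populations therefore had 2 different clear leaders and 1 tie.

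In old replicate 1 Igfbp7 led with 46.7% (46.4% to 47.1%), ahead of Igfbp5 with 20.9% and Igfbp2 with 14.1%. Old replicate 2 was dominated by Igfbp5 with 83.3% (83.2% to 83.5%), ahead of Igfbp3 with 9.51%. Old replicate 3 was led by Igfbp2 with 51.1% (50.9% to 51.4%), ahead of Igfbp5 with 28.5%. No binding protein led in all populations of either age group. Igfbp5 was first or second in all 6. Counting each thinned cell with the same weight put Igfbp5 first in young replicate 3, with 47.1% against 43.3% for Igfbp7, and left the leader of the other 5 populations as it was. The summed level of the 6 binding proteins came to 880, 4886 and 512 CPM in young and to 426, 1474 and 1074 CPM in old populations.

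**Figure D2:**
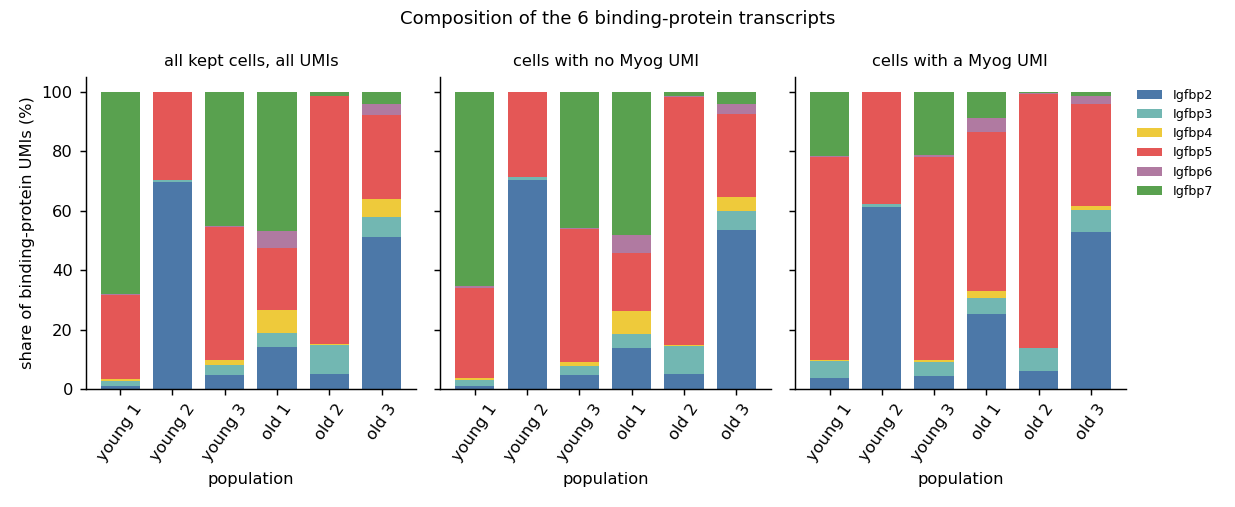
Share of the UMIs of the 6 binding-protein genes held by each (vertical axis, %, colours) in every population, for all kept cells (left), for cells thinned to 5000 UMIs with no Myog UMI (middle) and for thinned cells with a Myog UMI (right). The Igfbp7 share (green) of young 1, young 3 and old 1 is smaller on the right, where Igfbp5 (red) holds 68.5%, 68.6% and 53.5%.

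Single cells mostly showed 1 or a pair of binding proteins. Of the thinned cells, 65.7% in young replicate 1 held UMIs of exactly 1 of the 6 genes and 72.7% in young replicate 2 held UMIs of exactly 2. Between 0.178% (young replicate 2) and 25.6% (old replicate 1) of cells held none. In cells with 3 or more binding-protein UMIs, the gene with the most UMIs was Igfbp7 in 74.0% of 4393 cells of young replicate 1 and Igfbp2 in 81.1% of 10553 cells of young replicate 2. In young replicate 3, Igfbp7 led in 46.1% and Igfbp5 in 41.1% of 4114 cells. In old replicate 1, Igfbp7 led in 56.1%, Igfbp5 in 14.2% and Igfbp2 in 12.1% of 3271 cells. Igfbp5 led in 88.1% of 5408 cells of old replicate 2. In old replicate 3, Igfbp2 led in 59.1% and Igfbp5 in 24.1% of 8442 cells. Cells with 3 or more such UMIs were 52.0%, 99.1% and 38.7% of thinned cells in young replicates 1, 2 and 3. In old replicates 1, 2 and 3 they were 33.0%, 63.5% and 69.4%, so the leader shares cover unlike parts of the populations. Ties made up 2.34% (young replicate 2) to 10.4% (old replicate 3) of the cells counted.

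Cells led by Igfbp5 and cells led by Igfbp7 in the same population differed in their muscle genes. In young replicate 1 the summed level of the myogenic progenitor list was 1611 CPM in the 994 cells led by Igfbp5 and 380 CPM in the 3253 cells led by Igfbp7. In old replicate 1 it was 1684 CPM in 464 cells led by Igfbp5, 1658 CPM in 397 cells led by Igfbp2 and 271 CPM in 1835 cells led by Igfbp7. Old replicates 2 and 3 gave 2067 and 2927 CPM with Igfbp5 in the lead against 953 and 1072 CPM with Igfbp7 in the lead, the latter in only 47 and 95 cells. In young replicate 3 the levels were closer, at 641 and 504 CPM. The order was the same in the 5 populations that held at least 30 cells of both kinds. Cells led by Igfbp2 lay near those led by Igfbp5 in young replicate 2 (2134 and 2126 CPM), old replicate 2 (2121 CPM) and old replicate 3 (2955 CPM). In young replicate 3 the 112 cells led by Igfbp2 gave 471 CPM, below both other kinds.

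The same cells differed in differentiation. A Myog UMI was found in 11.6% of cells led by Igfbp5 and 1.26% of cells led by Igfbp7 in young replicate 1, in 12.2% and 4.06% in young replicate 3 and in 5.17% and 0.163% in old replicate 1. In old replicates 2 and 3 the shares were 20.03% and 2.13%, and 50.0% and 20%. The differentiating myocyte list summed to 1786 and 189 CPM in young replicate 1. The part of this difference in the levels of the progenitor list was not tested. In every population that list was itself higher in cells with a Myog UMI than in cells without. Its TMM-scaled sums with and without a Myog UMI were 2851 and 582 CPM in young replicate 1 and 2656 and 434 CPM in old replicate 1. In old replicate 3 they were 3744 and 2459 CPM. A higher sum of the list therefore does not mark less differentiated cells.

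Single genes of the list can be set side by side in the same populations. Myod1, which commits cells to the muscle lineage, was at 229 CPM in cells led by Igfbp5 and 28.5 CPM in cells led by Igfbp7 of young replicate 1, and at 381 and 26.2 CPM in those of old replicate 1. Des, the intermediate filament of muscle, was at 230 and 16.8 CPM in young replicate 1 and at 173 and 5.99 CPM in old replicate 1. Chrna1 was at 673 and 108 CPM in young replicate 1 and at 558 and 33.9 CPM in old replicate 1. Pax7 was at 28.0 and 7.99 CPM in young replicate 1 and at 55.2 and 2.94 CPM in old replicate 1. Myf5, an early myogenic factor, had no counts in either kind of young replicate 1 and was at 19.0 and 0.763 CPM in old replicate 1. In young replicate 3 Myf5 was at 31.0 and 32.3 CPM beside 107 and 36.7 CPM of Myod1, in old replicate 2 at 55.1 and 51.1 CPM beside 593 and 179 CPM, and in old replicate 3 at 37.0 and 12.6 CPM beside 951 and 328 CPM. The fibro-adipogenic list gave 307 CPM in cells led by Igfbp5 and 320 CPM in cells led by Igfbp7 of young replicate 1, and 434 and 372 CPM in those of young replicate 3. In old replicates 1, 2 and 3 the pairs were 345 and 429 CPM, 477 and 885 CPM, and 312 and 646 CPM, higher each time with Igfbp7 in the lead. These groups of cells were formed from the binding-protein UMIs of the same cells, so the values are a description over cells and carry no test.

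**Figure D3:**
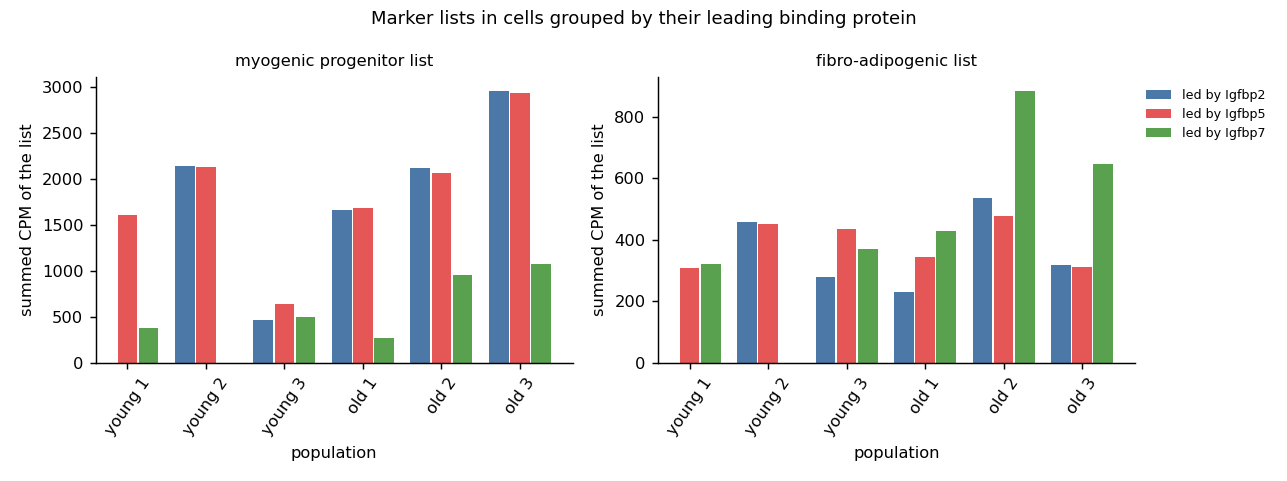
Summed level (vertical axes, CPM in cells thinned to 5000 UMIs) of the myogenic progenitor list (left) and the fibro-adipogenic list (right) in cells whose most abundant binding protein was Igfbp2 (blue), Igfbp5 (red) or Igfbp7 (green), by population; groups under 30 cells are not drawn. With Igfbp7 in the lead the myogenic list was at 271 to 1072 CPM, below the bar for Igfbp5 in each of the 5 populations that show both.

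The relation of the system to differentiation was read from Myog detection. After thinning, 304 of 8444 cells (3.60%), 2172 of 10646 (20.4%) and 569 of 10631 (5.35%) held a Myog UMI in young replicates 1, 2 and 3. In old replicates 1, 2 and 3 the numbers were 67 of 9906 (0.676%), 1235 of 8510 (14.5%) and 5563 of 12168 (45.7%). For each population the counts of Myog-positive and of Myog-negative cells were summed, and the 12 sums were compared within populations with edgeR. The contrast moved many genes: 3728 of 12375 (30.1%) passed, 1669 (13.5%) higher and 2059 (16.6%) lower in Myog-positive cells. All 11 tested genes of the differentiating myocyte list were higher, with a median log2 fold change of 6.66. Among the 10 IGF genes, Igf1, Igf2 and Igf2r were higher and Igfbp7 was lower, which makes 4 of 10 against the 30.1% of all genes. DESeq2 called 6 of the 10 and 3876 of all genes (31.3%). A single Myog UMI made a cell positive, and no cell type here was certain to lack Myog, so these shares too have no background value beside them. With 2 or more Myog UMIs required of positive cells, the same 4 genes and Igfbp4 were called, where 34.1% of all genes were.

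Igf1 rose with Myog detection. Its level in Myog-positive against Myog-negative cells was 12.5 and 0.627 CPM in young replicate 1, 3.86 and 0.422 CPM in young replicate 2, and 7.29 and 0.710 CPM in young replicate 3. In old replicate 2 the levels were 22.9 and 8.16 CPM and in old replicate 3 they were 7.67 and 2.24 CPM. Old replicate 1 had 0 Igf1 counts in its 67 Myog-positive cells, where 3 counts would be 8.07 CPM. A level like that of young replicates 2 and 3 or old replicate 3 was therefore not detectable there, while one like that of young replicate 1 or old replicate 2 would have been. Positive cells were thus higher in 5 of 6 populations. The fit gave a log2 fold change of 2.43 (SE 0.40, edgeR adjusted p = 0.00335).

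The counts behind Igf1 were small, from 17 to 193 UMIs in the Myog-positive cells of those 5 populations. A UMI was found in 5.26% of Myog-positive and 0.270% of Myog-negative cells of young replicate 1, and in 10.2% of Myog-positive cells of old replicate 2.

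Igf2 was higher in Myog-positive cells in all 3 populations with many counts. The levels were 183 CPM in Myog-positive and 70.9 CPM in Myog-negative cells of young replicate 3, 62.0 and 7.56 CPM in old replicate 2, and 153 and 28.4 CPM in old replicate 3. In young replicate 1 they were 11.01 and 0.257 CPM, from 15 and 9 counts. Young replicate 2 and old replicate 1 each had 1 count in Myog-positive and 0 in Myog-negative cells. The fit gave a log2 fold change of 2.49 (SE 0.48, edgeR adjusted p = 0.0129). The call was lost at a like size without old replicate 2 (2.28, edgeR adjusted p = 0.0635) and without old replicate 3 (2.58, edgeR adjusted p = 0.0583). On the longer gene list alone it held, at 2.25 (SE 0.34, edgeR adjusted p = 0.0141).

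Igf2r rose by a small amount. Its levels in Myog-positive and Myog-negative cells were 61.7 and 68.6 CPM in young replicate 1, 52.8 and 35.3 CPM in young replicate 2, and 53.2 and 41.1 CPM in young replicate 3. They were 40.3 and 35.5 CPM, 56.3 and 45.5 CPM, and 67.0 and 45.1 CPM in old replicates 1, 2 and 3. Young replicate 1 was the 1 population with the lower value in positive cells. The log2 fold change was 0.34 (SE 0.10, edgeR adjusted p = 0.0266). The call was lost without young replicate 2 (0.28, edgeR adjusted p = 0.0943), old replicate 2 (0.35, edgeR adjusted p = 0.0679) or old replicate 3 (0.29, edgeR adjusted p = 0.105), and without thinning (0.25, edgeR adjusted p = 0.0631). Igf1r was not called (log2 fold change -0.20, SE 0.09, edgeR adjusted p = 0.119), with positive cells lower in 5 of 6 populations, and was called as lower without thinning (-0.16, edgeR adjusted p = 0.0467).

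Igfbp7 fell in Myog-positive cells. The levels were 279 CPM in positive and 569 CPM in negative cells of young replicate 1, 217 and 237 CPM in young replicate 3, and 116 and 209 CPM in old replicate 1. They were 10.0 and 19.0 CPM in old replicate 2 and 16.1 and 42.1 CPM in old replicate 3. Young replicate 2 had 3 and 21 counts. Positive cells were lower in the 5 populations with more than 3 counts in both sums, and 19% of all genes tested were lower in all 6 by value alone. The log2 fold change was -0.86 (SE 0.16, edgeR adjusted p = 0.00422). On the longer gene list alone the call was lost at a like size (-0.79, SE 0.24, edgeR adjusted p = 0.0710). Of the 12 fibro-adipogenic markers 6 were tested, of which 3 were lower and 0 higher in Myog-positive cells, against 16.6% and 13.5% of all genes tested. The list summed to 192 to 463 CPM in positive and 307 to 506 CPM in negative cells, and 1 to 4 of its genes had 3 or fewer counts in a population. The part of these genes' cells in the result for Igfbp7 was not tested.

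Igfbp5 and Igfbp3 were higher in Myog-positive cells of 6 of 6 populations, which 12.7% of all genes tested showed, without passing edgeR's threshold. Igfbp5 stood at 887 and 265 CPM in positive and negative cells of young replicate 1, at 700 and 232 CPM in young replicate 3 and at 694 and 85.3 CPM in old replicate 1. In the other 3 populations the levels were closer together, at 1885 and 1457 CPM in young replicate 2, 2020 and 1155 CPM in old replicate 2 and 363 and 299 CPM in old replicate 3. The 3 populations with the lowest Igfbp5 level in all cells were the ones with the widest gap. The log2 fold change was 1.27 (SE 0.42, edgeR adjusted p = 0.0736), and that of Igfbp3 was 0.93 (SE 0.31, edgeR adjusted p = 0.0631). DESeq2 called both (adjusted p = 0.00743 and 0.00111), and edgeR called Igfbp5 without old replicate 1 (adjusted p = 0.0499).

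The remaining binding proteins had log2 fold changes of -0.98 (SE 0.32, edgeR adjusted p = 0.0507) for Igfbp4, 0.98 (SE 0.47, edgeR adjusted p = 0.178) for Igfbp2 and 0.18 (SE 0.28, edgeR adjusted p = 0.673) for Igfbp6. Igfbp4 was called as lower without young replicate 1 (edgeR adjusted p = 0.0452) or young replicate 3 (0.0219), with 2 or more Myog UMIs (-1.29, edgeR adjusted p = 0.0237) and in cells without a Mki67 or Top2a UMI (-1.55, edgeR adjusted p = 0.0262). Without old replicate 3 its log2 fold change was -0.52 (edgeR adjusted p = 0.312). For Igfbp2 the direction depended on the population. Positive cells were higher in old replicate 1 (328 and 59.4 CPM) and young replicate 1 (48.4 and 8.81 CPM), and lower in young replicate 2 (3070 and 3574 CPM), where nearly every cell held the RNA. The 10 genes had a median log2 fold change of 0.64, against -0.06 over all genes tested.

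**Figure D4:**
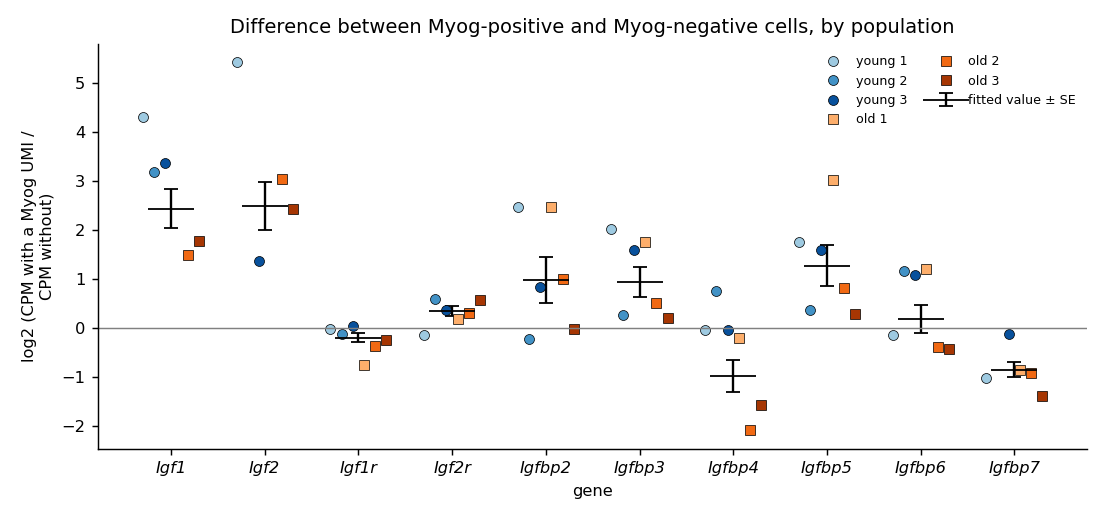
Difference between cells with and without a Myog UMI (vertical axis, log2 ratio of TMM-scaled CPM in cells thinned to 5000 UMIs) for each gene; 1 point is 1 population, and the black bar with whiskers is the edgeR estimate ± SE over all 6. No point is drawn where a sum had 3 or fewer counts (Igf1 in old 1, Igf2 in young 2 and old 1, Igfbp7 in young 2). Igf1 and Igf2 sit above 0 and Igfbp7 below 0 in each population drawn.

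The composition of the binding proteins shifted with Myog in the same populations. Igfbp5 held 68.5% of binding-protein UMIs in Myog-positive and 30.5% in Myog-negative cells of young replicate 1. It held 68.6% and 44.6% in young replicate 3 and 53.5% and 19.6% in old replicate 1. In Myog-positive cells of these 3 populations Igfbp5 led. In Myog-negative cells Igfbp7 led in young replicate 1 and old replicate 1, while in young replicate 3 its 45.7% (45.2% to 46.3%) and the 44.6% of Igfbp5 (44.1% to 45.2%) were not resolved. Young replicate 2 and old replicate 3 stayed with Igfbp2 (61.4% and 52.9% in Myog-positive cells) and old replicate 2 with Igfbp5 (85.6%). The gain of the Igfbp5 share was also present there, from 28.7% to 37.7% in young replicate 2, from 83.4% to 85.6% in old replicate 2 and from 28.0% to 34.2% in old replicate 3.

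Cells were also grouped by the number of their Myog UMIs. Levels in this paragraph are CPM without TMM scaling in thinned cells. Igf2 increased over cells with 0, 1, 2 to 3 and 4 or more Myog UMIs from 77.4 through 123 and 175 to 389 CPM in young replicate 3, and from 27.6 through 59.4 and 105 to 175 CPM in old replicate 3. In old replicate 2 it went from 8.05 through 31.4 and 57.6 to 89.0 CPM. Igfbp5 went from 1231 through 2418 and 2542 back to 1561 CPM in old replicate 2, and from 291 through 421 and 469 to 259 CPM in old replicate 3. In young replicate 2 it went from 1467 through 2228 and 2390 to 1284 CPM. In young replicate 3 it climbed throughout, from 253 through 536 and 992 to 1131 CPM.

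Igfbp5 was lower in cells with 4 or more Myog UMIs than in cells with 1 in 4 of 6 populations. Young replicate 3 (536 and 1131 CPM) and old replicate 1 (516 and 754 CPM, in 31 and 26 cells) were the exceptions. Igfbp7 was lower with 4 or more Myog UMIs than with none in 5 populations, for example 490 and 156 CPM in young replicate 1, and had 1 count with 4 or more in young replicate 2. Igf1 was higher with 4 or more than with 0 in 5 of 6, for example 0.775 and 21.2 CPM in young replicate 3, from 39 and 16 counts. In old replicate 2 Igf1 went from 8.69 through 21.6 and 25.8 to 23.3 CPM. These are values over cells of a population and were not tested.

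**Figure D5:**
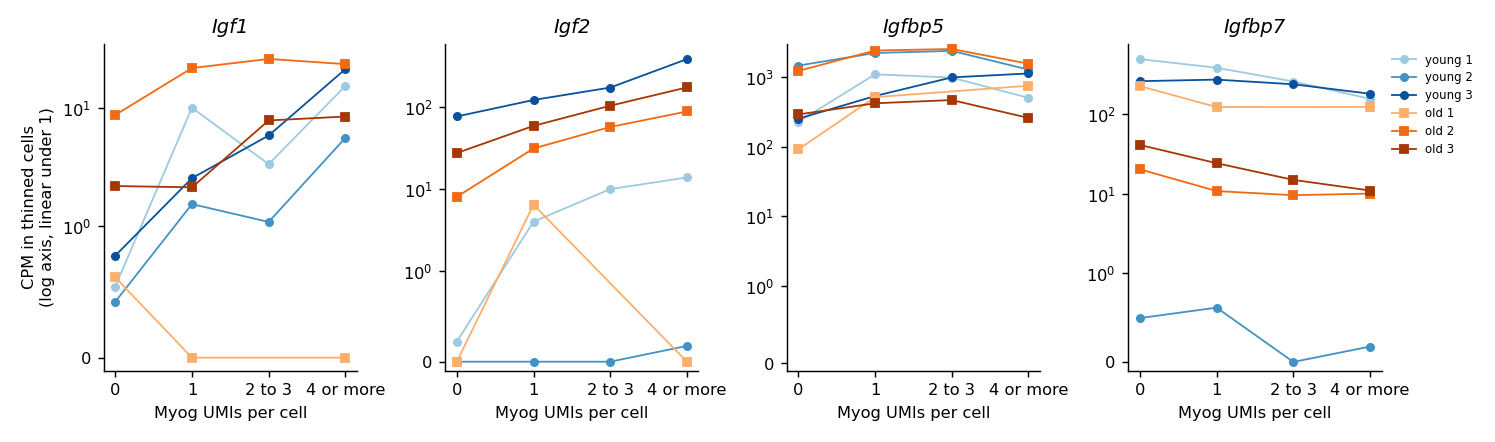
Level of Igf1, Igf2, Igfbp5 and Igfbp7 (vertical axes, CPM without TMM scaling in cells thinned to 5000 UMIs, on a log axis that is linear under 1) in cells grouped by their number of Myog UMIs (horizontal axis), with 1 line for each population; groups under 20 cells are not drawn. Igf2 of young 3, old 2 and old 3 climbs to the last group, while Igfbp5 of young 2, old 2 and old 3 peaks at 2 to 3 Myog UMIs, at 2390, 2542 and 469 CPM.

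Whether the difference with Myog detection itself differed between old and young populations was tested as an interaction. None of the 12375 genes passed (0%), 283 had an unadjusted p under 0.05, and DESeq2 called none either. Of the 10 genes, 2 had an unadjusted p under 0.05. For Igf1 the old populations had a log2 difference with Myog that was smaller by 1.98 (SE 0.40, edgeR adjusted p = 0.99995), with 9.14 to 19.9 times the Myog-negative level in Myog-positive cells of the young populations and 2.81 and 3.42 times in old replicates 2 and 3. For Igfbp4 the interaction was -1.51 (SE 0.45, edgeR adjusted p = 0.99995).

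Because myogenin binds the E-box CANNTG, the 250 bases before the RefSeq start of the genes that were called or led a population were searched for it. The sequences are from RefSeq (GRCm38.p6), are shown from 5′ to 3′ on the strand of the gene, and carry each CANNTG, which reads the same on both strands, in capitals. CANNTG occurred in 66.2% of 32851 RefSeq promoter windows of this length, CAGCTG in 4271 of them and CAGGTG on either strand in 17.2%. Igf2r (chr17:12769707-12769956, minus strand) held 4 E-boxes, 1 of which is CAGGTG on the other strand, Igfbp5 (chr1:72874866-72875115, minus strand, of which 19 bases lie in an annotated exon) held 1, and Igfbp7 (chr5:77408046-77408295, minus strand) held none. Of the 4 windows of Igf2, 3 held none and 1 held 2, and the 2 windows of Igfbp2 held 1 each (not shown).
Igf2r: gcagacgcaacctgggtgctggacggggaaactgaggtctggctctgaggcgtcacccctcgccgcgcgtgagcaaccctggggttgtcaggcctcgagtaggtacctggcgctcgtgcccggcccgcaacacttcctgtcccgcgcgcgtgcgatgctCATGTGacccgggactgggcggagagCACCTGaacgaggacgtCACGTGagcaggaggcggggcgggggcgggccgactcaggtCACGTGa
Igfbp5: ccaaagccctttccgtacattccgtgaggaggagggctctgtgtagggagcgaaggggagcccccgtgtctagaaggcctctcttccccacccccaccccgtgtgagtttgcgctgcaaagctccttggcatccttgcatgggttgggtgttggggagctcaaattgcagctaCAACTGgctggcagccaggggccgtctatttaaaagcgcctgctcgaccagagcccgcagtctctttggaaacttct
Igfbp7: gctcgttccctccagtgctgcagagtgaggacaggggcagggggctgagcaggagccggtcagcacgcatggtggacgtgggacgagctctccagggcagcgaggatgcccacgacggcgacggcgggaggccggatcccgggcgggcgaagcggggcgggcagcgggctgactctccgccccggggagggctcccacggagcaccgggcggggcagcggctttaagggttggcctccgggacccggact
The window of Igf1 lies in an exon of other annotated transcripts, and only its 1 E-box, a CAGCTG 157 bases before the RefSeq start, is shown with its flanks (chr10:87860942-87860971, plus strand).
Igf1: gggaagagaggtCAGCTGcctagagcgatt
A match in these windows describes the letters and does not show a bound site.

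The other genes of the pathway were taken from 4 lists with 66 genes. Of 30 genes of IGF signalling, 7 were higher and 8 lower in Myog-positive cells, against 13.5% and 16.6% of all genes tested, at a median log2 fold change of -0.07. Akt2, the AKT isoform linked to insulin signalling and muscle differentiation, was higher by 1.22 (SE 0.15, edgeR adjusted p = 0.00065), with 88.8 and 26.2 CPM in positive and negative cells of young replicate 1 and 99.4 and 35.6 CPM in those of old replicate 3. Foxo1, a transcription factor that AKT keeps out of the nucleus, was higher by 0.79 (SE 0.17), the adaptor Grb2 by 0.46 (SE 0.08) and the kinase Gsk3b by 0.28 (SE 0.08). Irs1, the docking protein that couples the IGF1 receptor to PI3 kinase, fell by 0.60 (SE 0.13), and Grb14, an inhibitor of insulin receptor signalling, fell by 0.94 (SE 0.21). The same sign in 6 of 6 populations was a condition for naming these genes and is not a separate result.

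Of 15 genes for proteases that act on binding proteins and their inhibitors, 1 was higher and 6 were lower in Myog-positive cells, against the same 13.5% and 16.6%. The lysosomal protease Ctsd was higher by 0.48 (SE 0.10, edgeR adjusted p = 0.00567). Htra1, a secreted protease that cleaves Igfbp5, fell by 0.81 (SE 0.16, edgeR adjusted p = 0.0038) and the metalloproteinase inhibitor Timp1 by 0.56 (SE 0.11, edgeR adjusted p = 0.00469). Of 13 other genes with an IGF-binding-protein domain 8 were tested, 1 of which was higher and 4 of which were lower, against 13.5% and 16.6% of all genes. Ccn2, a matricellular protein known as connective tissue growth factor, fell by 1.53 (SE 0.17, edgeR adjusted p = 0.000187) and Crim1, which binds BMPs, by 1.10 (SE 0.11, edgeR adjusted p = 0.000155). Of 8 insulin-family ligands and receptors 2 were tested and none was called. With age 57 of the 66 genes were tested and none was called, and in 3 of the 57 the groups did not overlap, against 6.05% of all genes tested. Pik3r2, a regulatory subunit of PI3 kinase, was named by rule, with 25.2, 25.3 and 24.9 CPM in young and 16.5, 20.3 and 12.5 CPM in old populations (log2 fold change -0.61, SE 0.25, edgeR adjusted p = 0.999859). The other 2 were under the mean of 5 CPM that the rule asks for and are named after their values were seen. Mmp2, a matrix metalloproteinase, gave 2.05, 0.0727 and 0.699 CPM in young and 2.28, 2.71 and 4.60 CPM in old populations. Pappa, the gene of PAPP-A, gave 2.21, 4.20 and 1.59 CPM in young and 1.31, 0.350 and 0.470 CPM in old populations.

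Genes whose counts followed those of an IGF gene across the cells of a population were named by the mean of the within-population Pearson correlation. The correlations are over thinned cells of equal depth that share a library, and they describe these libraries. For Igfbp5, over 5 populations, the highest were Peg3 (mean r 0.351, range 0.259 to 0.506), an imprinted zinc-finger gene, Lrrn1 (0.326, range 0.114 to 0.552) and Cdon (0.264, range 0.141 to 0.465), a cell-surface protein that promotes myogenic differentiation. For Igfbp7, over 3 populations, they were Cd9 (0.221), S100a6 (0.192) and Tm4sf1 (0.189). For Igfbp2, over 3 populations, they were Atp6v1g1 (0.242), its neighbour Igfbp5 (0.230, range 0.186 to 0.317) and Cd63 (0.218). For Igf1r the highest was Gpc6 (0.135, 4 populations) and for Igf2r no gene was above 0.0936. Igf1, Igfbp4 and Igfbp6 were found in 20% of cells or more in no population and Igf2 and Igfbp3 in 2, under the 3 that this measure required. Between Igfbp5 and Igfbp7 the correlation was -0.178 in young replicate 1 and 0.0611 in young replicate 3, the 2 populations where both were found in 20% of cells or more.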

How the data were processed

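The authors deposited, per sample, raw whole-number UMI counts per gene and barcode, made with Cell Ranger (version 7.0.0 in 2 samples and 7.2.0 in the other 4, per the file headers), with build mm10 per the submitters' processing notes. The treatment of intronic and multi-gene reads is not given in the sources used here. The first version went with a list of 21849 features and the second with 32285, and the 21485 shared identifiers were analysed. Gene positions are from GENCODE vM21. Barcodes with at least 1000 UMIs, at least 500 genes and less than 15% of UMIs from 13 mitochondrial genes counted as cells. Scrublet called 888 cells in old replicate 3 and 0 or 1 in each other sample. These calls were too uneven for use, so doublets remained (expected shares 7.13% to 10.2%). The depth per sample was 133683424 to 196258384 UMIs in kept cells. For detection and Myog groups, cells were thinned to 5000 UMIs, which left out 539 young and 829 old cells.

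The quasi-likelihood test of edgeR 4.0.16 (R 4.3.3) was applied to sample sums, robust and two-sided, with TMM scaling, filterByExpr and Benjamini-Hochberg adjustment over all genes tested, with the gene list as a term for old against young and the sample as a block for Myog. SEs are the fold change over the root of F. DESeq2 1.42.0, other filters, scalings, cells and left-out samples were alternatives. The fits were also run on counts simulated at fixed dispersions. For old against young, all populations had the same simulated profile apart from the seeded changes. How the fits perform at the spread seen here was not tested. For old against young the p-values weigh the difference against the spread between populations. For Myog they weigh it against the spread of the within-population difference. Either spread may include culture effects. The 10 genes and all lists were chosen with earlier results of these data known. Pathway genes were named by the largest fold changes, up to 6 a direction, among genes with a mean of 5 CPM or more that were called with 1 sign in all samples (Myog) or did not overlap (age).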

Additional observations from a re-analysis of the deposited data

Results flagged for a closer look

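The shallow barcodes left out of the cells (under 1000 UMIs or 500 genes) were not used in any comparison and still held binding-protein UMIs above the limit of 3 counts set for an undetected gene. The leading gene in them was Igfbp5 with 9 of 21 binding-protein counts in young replicate 1, Igfbp2 with 154 of 305 in young replicate 2 and Igfbp5 with 23 of 32 in young replicate 3. In the old populations it was Igfbp5 throughout, with 20 of 28 counts in replicate 1, 103 of 120 in replicate 2 and 41 of 93 in replicate 3. In old replicate 1 Igfbp5 held 71.4% of the counts (95% Wilson interval 52.9% to 84.7%), while Igfbp7 led in the kept cells. The intervals of 24.5% to 63.5% for Igfbp5 in young replicate 1 and 34.4% to 54.2% in old replicate 3 are too wide to set the leader there against that of the kept cells. In kept cells of young replicate 3 the leader was not resolved.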

How the results depend on the processing

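Between old and young, DESeq2 called 1 of the 10 genes (Igfbp6) and every other alternative called 0. The fitted log2 fold changes of Igf1, Igfbp3, Igfbp4 and Igfbp6 stayed positive under all 15 alternatives, which reuse the same populations. With 1 population left out they were 1.12 to 2.82, 0.87 to 1.88, 1.53 to 5.20 and 2.27 to 4.09. Without young replicate 1 or old replicate 1 the fit nearly repeated that on the longer list, with Igf1 at 2.82 each time. The share of all genes that kept their sign was not counted. The direction turned for Igf2 (log2 fold change 0.28 without the gene list term, 0.29 on the longer list, 0.44 with the replicate block), Igf2r (0.34 on the longer list, 0.000633 without TMM) and Igfbp2 (2.05 with the replicate block). Leaving out 1 population gave ranges of -2.46 to 3.33 for Igf2, -0.27 to 0.34 for Igf2r, -2.45 to 3.38 for Igfbp2, -1.46 to 0.25 for Igfbp5, -0.88 to 0.19 for Igf1r and -2.39 to 2.42 for Igfbp7, and 0 calls each time. Deviations of same-numbered young and old populations had correlations of 0.396, 0.281 and -0.108, and those of other numbers -0.481 to 0.330. So few values cannot decide whether the numbers pair the samples. The replicate block called 0 of the 10. For Myog detection, leaving out 1 population left 2 to 5 calls. Without old replicate 2 or 3, Igf1 and Igfbp7 were called and Igf2 and Igf2r were not. DESeq2 called 6 (3876 of all 12375 genes), the longer list (chosen after seeing the data) 3 (2967 of 12543), and a fit with no sample block 0 (264 of 12375). Igfbp6 turned to -0.0718 on the longer list and -0.0374 in cells without a Mki67 or Top2a UMI, with -0.0445 to 0.58 when 1 population was left out. The interaction turned for Igf2r (-0.0394 on the longer list, -0.0877 at 2 or more Myog UMIs, -0.11 in cells without Mki67 or Top2a), Igfbp5 (-0.43 on the longer list, -0.0575 in those cells) and Igf2 (-0.0851 in those cells). Without 1 population its ranges were -0.037 to 0.27 for Igf2r, -0.50 to 0.85 for Igfbp2, -0.70 to 0.64 for Igfbp5 and -2.64 to 1.37 for Igf2. The cause of these changes was not tested.

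The share of the binding protein that came first in all kept cells of young replicates 1, 2 and 3 and old replicates 1, 2 and 3 was 63.1%, 68.8%, 43.3%, 47.3%, 83.9% and 53.3% in thinned cells, where in young replicate 3 Igfbp5 was ahead with 47.1%. In Myog-negative cells the first 4 were 65.5%, 70.5%, 45.7% and 48.1%, and old replicate 3 gave 53.6%. Without the cells of the highest doublet scores, young replicates 2 and 3 gave 69.8% and 44.4%, the latter below Igfbp5. With Igfbp7 left out, its share is 0 by construction, Igfbp5 led in young replicates 1 and 3 and old replicate 1, and old replicates 2 and 3 gave 84.4% and 53.3%. Depth limits Igf1 and Igf2 in Myog-positive cells of old replicate 1, where 3 counts are 8.07 CPM.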

Other observations

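Igfbp4 was concentrated in few cells of old replicate 3, a pattern chosen after its values were seen and given with no test. There, 256 of 12168 thinned cells (2.10%) held 3 or more Igfbp4 UMIs and carried 84.2% of the Igfbp4 UMIs of the population. In old replicate 1, 85 of 9906 cells (0.858%) held 3 or more and carried 16.3%. The 256 cells were at 463 CPM for Igfbp7 and 171 CPM for Igfbp6, against 19.6 and 28.7 CPM in the other cells of the population. Igfbp2 was at 57.8 and 545 CPM, Igfbp5 at 46.1 and 314 CPM, and Igf2 at 12.5 and 79.8 CPM. The myogenic progenitor list summed to 458 CPM in the 256 cells and 2899 CPM in the rest, and a Myog UMI was found in 17.6% and 46.3% of them. Genes other than Igfbp4 at 100 CPM or more in these cells were ranked by ratio, with 5 CPM added to both values. The first 10 held Cck, which encodes cholecystokinin (658 and 5.89 CPM), and Rpl39l (696 and 7.52 CPM). They held the metalloproteinase inhibitor Timp3 (467 and 4.94 CPM) and the matrix gene Fbln2 (519 and 6.46 CPM). The collagen gene Col1a2 (266 and 2.79 CPM) and the proteoglycan gene Bgn (669 and 17.7 CPM) were also among them. The others were Lmo1 (308 and 2.23 CPM), Fxyd5 (327 and 2.87 CPM), Ccn2 (294 and 3.53 CPM) and Lce1g (287 and 5.86 CPM). The fibro-adipogenic list was at 721 and 289 CPM. These cells had a median of 30692 UMIs before thinning, against 13117 in the others, and 14.5% of them were among the highest doublet scores, against 10.4%.

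Cells led by Igfbp4 in old replicates 1 and 3 were low in the myogenic progenitor list. It summed to 196 CPM in the 169 such cells of old replicate 1 and to 489 CPM in the 231 such cells of old replicate 3, the lowest level among leaders with at least 30 cells in each of these populations. Myog UMIs were found in 0 of the 169 cells in old replicate 1 and in 20.8% of the 231 in old replicate 3.

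Cells led by Igfbp6 were few. In old replicate 1 the differentiating myocyte list stood at 1702 CPM in 63 such cells, against 969, 722 and 24.4 CPM in cells led by Igfbp3, Igfbp5 and Igfbp7. In old replicate 3 it stood at 19474 CPM in 49 such cells, against 7255 and 6117 CPM in cells led by Igfbp2 and Igfbp5. A Myog UMI was found in 3.17% of the cells led by Igfbp6 (2 cells) and 5.17% of those led by Igfbp5 in old replicate 1. In old replicate 3 the shares were 36.7% (18 cells) and 50.0%. How the UMIs of the myocyte list were spread over the cells led by Igfbp6 was not tested, so a few cells may carry its level. Over all cells Igfbp6 was not called with Myog detection.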
